A study of Rattus norvegicus with 183 samples.

Results

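A set of 10 genes for regulators of G protein signalling (RGS) was examined in RNA from the posterior ventral tegmental area of outbred heterogeneous stock rats. The region lies in the midbrain and is best known for its dopamine neurons. The 10 members were chosen by symbol from the 38354 genes of the deposited table, by a rule that used no measured value of theirs. They are Rgs2, Rgs4, Rgs8 and Rgs16 of the R4 subfamily, Rgs6, Rgs7 and Rgs9 of the R7 subfamily, and Rgs10, Rgs12 and Rgs14 of the R12 subfamily. The labels describe 183 samples of polyA RNA, and the 31 of them marked as removed were not analysed here. Every library carries the same tissue label, and the labels give no treatment, genotype, sex, age or sequencing batch. The animals' identifiers are in decimal or hexadecimal format, and a note of an earlier label stands on 17 of the libraries.

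RGS proteins speed up the hydrolysis of GTP by the alpha subunits of heterotrimeric G proteins and so shorten the signal of G protein-coupled receptors. R4 members are small proteins built around the RGS domain, R7 members work in an obligate complex with the Gβ5 subunit, and the R12 group holds the multidomain proteins Rgs12 and Rgs14, which carry a further Gαi-binding GoLoco motif, beside the small Rgs10. In the ventral midbrain, dopamine D2 autoreceptors, opioid receptors and GABA-B receptors signal through the Gαi and Gαo proteins on which many RGS proteins act.

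The libraries fell apart by Th, the gene of the rate-limiting enzyme of dopamine synthesis. In most libraries Th lay between 577 and 3934 CPM (estimated counts per 1e6 estimated counts of the library), and in 11 it lay between 1.33 and 3.47 CPM, although all carry the same tissue label. Slc17a7, the vesicular glutamate transporter of cortical and hippocampal neurons, lay between 1833 and 2040 CPM in those 11 libraries, while its median where Th was present was 4.02 CPM. The libraries with Th are 53 with a decimal identifier, 87 with a hexadecimal one and 1 with another form, and the 11 are 10 decimal and 1 hexadecimal. Depth was similar, with a median total of 24.2 M (1e6) estimated counts in the libraries with Th (15.2 to 57.2 M) and 24.8 M in the others (18.0 to 46.4 M). Relations were measured over the libraries with Th. Each library is 1 dissected sample, so in this bulk tissue fewer cells of a type and less RNA per cell cannot be told apart. The estimated counts are not divided by transcript length, so levels are compared between libraries for 1 gene and never between genes.

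The promoters of 4 members are printed because the data set them apart in pairs: Rgs4 and Rgs14 had the largest ratios between the libraries without and with Th, and Rgs8 and Rgs6 moved together most closely among the libraries with Th. Each is 300 bases of RefSeq (GRCr8), 250 before to 50 after the annotated start. Capitals mark 4 motifs on either strand, and none overlaps another here. TGACGTCA is the cyclic AMP response element, and CACGTG is the E-box. Both read the same on either strand. The TATA box was searched as TATAAA, which the opposite strand writes as TTTATA. The CCAAT box was searched by its 5 letters, which the opposite strand writes as ATTGG.
Rgs4, minus strand, chr13:84475835-84476134: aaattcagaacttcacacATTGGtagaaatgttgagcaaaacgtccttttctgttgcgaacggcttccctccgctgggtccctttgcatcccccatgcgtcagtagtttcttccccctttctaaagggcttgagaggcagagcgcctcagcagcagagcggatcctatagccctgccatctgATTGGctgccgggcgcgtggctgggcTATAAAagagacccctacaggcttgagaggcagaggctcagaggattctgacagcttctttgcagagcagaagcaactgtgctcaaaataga
Rgs14, minus strand, chr17:9268184-9268483: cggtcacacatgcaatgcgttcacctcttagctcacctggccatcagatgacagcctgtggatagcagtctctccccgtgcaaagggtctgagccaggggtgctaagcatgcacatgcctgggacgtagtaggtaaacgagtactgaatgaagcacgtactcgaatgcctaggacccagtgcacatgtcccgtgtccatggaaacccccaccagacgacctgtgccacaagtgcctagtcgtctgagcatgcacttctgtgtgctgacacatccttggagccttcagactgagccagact
Rgs8, plus strand, chr13:68366648-68366947: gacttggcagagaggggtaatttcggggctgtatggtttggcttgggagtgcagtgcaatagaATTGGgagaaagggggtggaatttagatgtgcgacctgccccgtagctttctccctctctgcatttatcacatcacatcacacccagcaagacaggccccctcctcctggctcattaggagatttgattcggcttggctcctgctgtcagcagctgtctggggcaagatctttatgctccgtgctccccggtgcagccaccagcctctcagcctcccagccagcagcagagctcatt
Rgs6, plus strand, chr6:107996245-107996544: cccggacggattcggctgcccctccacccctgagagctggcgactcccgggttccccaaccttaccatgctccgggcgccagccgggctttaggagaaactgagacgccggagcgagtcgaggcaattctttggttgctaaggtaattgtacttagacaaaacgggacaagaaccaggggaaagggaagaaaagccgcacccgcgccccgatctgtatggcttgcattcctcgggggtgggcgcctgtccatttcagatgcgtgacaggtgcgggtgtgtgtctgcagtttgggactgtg

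The pairs did not share these letters. The Rgs4 window has a TATA box 42 bases before the start and CCAAT boxes 232 and 68 bases before it, while the Rgs14 window holds none of the 4 motifs. Rgs8 has a CCAAT box 187 bases before its start, and Rgs6 has none of the 4. Over all 10 members, which all matched the RefSeq table, 5 windows hold a CCAAT box (Rgs2, Rgs4, Rgs8, Rgs16 and Rgs9), 1 a TATA box (Rgs4), 1 an E-box (Rgs7) and 0 the cyclic AMP element. The shares over all 33469 RefSeq promoters of this length are 37.5% for the CCAAT box, 14.2% for the TATA box, 6.42% for the E-box and 1.83% for the cyclic AMP element. A match describes letters and is not a measured binding site. The annotated start equals the file's gene position for Rgs2, Rgs4, Rgs9 and Rgs14, lies 32 bases from it for Rgs7, and lies 4563 to 120612 bases away for the other 5, so for Rgs8 (11820 bases) and Rgs6 (120612 bases) the window may not be the promoter used in this tissue.

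All 10 members were detected in every library with Th and passed the filter on low values (a mean log2(CPM + 1) of at least 1, met by 15546 genes). Their spread differed widely. Rgs7 was the steadiest, with an SD of 0.17 on the log2(CPM + 1) scale and a highest level 1.92 times the lowest. Rgs14 varied most, with an SD of 0.55 and a highest level 35.1 times the lowest, although its median of 1.55 CPM rests on few counts. Ranked by SD after the trend of SD with level was removed, Rgs14 stood at the 89.9th, Rgs12 at the 87.6th and Rgs6 at the 86.3rd percentile of the genes in the fit, and Rgs7 at the 29.4th. The other 6 members stood between the 63.5th (Rgs10) and the 81.8th percentile (Rgs8).

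**Figure D1:**
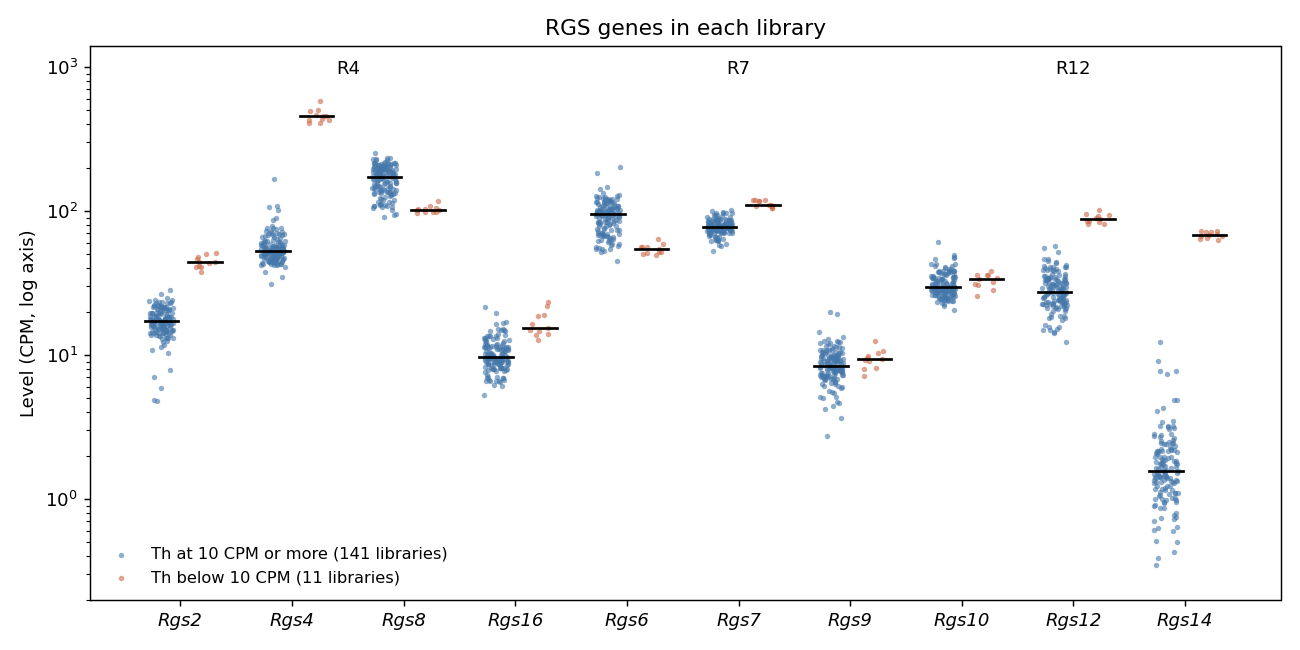
Level of each RGS gene (CPM, log axis) in the libraries with Th of 10 CPM or more (blue) and the 11 below (orange), 1 point per library, with black lines at the medians and the subfamilies named on top. Rgs2, Rgs4, Rgs7, Rgs12 and Rgs14 are higher in every orange library than in any blue one, and the other 5 genes overlap.

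To ask which cell types each gene follows, the mean z score of the markers of a cell type was computed per library for 21 marker lists, and limma was fitted to all 15546 genes on each score with the identifier format as covariate. Slopes are log2 units per SD of the score, and a gene passed at a Benjamini-Hochberg adjusted p under 0.05 over all genes. With the dopamine neuron score, 6 of the 10 members passed, 4 rising (Rgs8, Rgs9, Rgs16 and Rgs7) where 24.4% of all genes rose, and 2 falling (Rgs10 and Rgs2) where 16.6% fell. With the score of cortical or hippocampal neurons, 5 members rose (Rgs14, Rgs4, Rgs6, Rgs12 and Rgs10) and none fell, where 10.8% of all genes rose and 2.34% fell. Only 5 of the 9 markers of that list were measured, and their mean r with each other was 0.15, so its score is a loose measure. That mean was 0.68 in the dopamine, 0.62 in the oligodendrocyte, 0.39 in the microglia and 0.20 in the GABA list. With the oligodendrocyte score, 8 members fell and 1 (Rgs10) rose, Rgs2 not passing, where 35.1% of all genes fell and 16.1% rose. With the microglia score, 5 rose (Rgs14, Rgs12, Rgs10, Rgs16 and Rgs6) and 1 (Rgs7) fell, where 34% of all genes rose and 9.75% fell. With the GABA neuron score, Rgs12 rose and Rgs7 fell, where 7.5% of all genes rose and 3.17% fell. With 10 members, a share of 1 gene in either direction is near that of all genes for the GABA score, and so is the share falling with the dopamine score.

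Several of these counts changed with the processing or with the set of libraries. The cortical count was 3 of 10 in decimal and in hexadecimal libraries alone, and 3 with median-of-ratios size factors. The oligodendrocyte count was 3 in decimal libraries alone and 5 with the first principal component of all genes as a covariate. The share of all genes that passed in these settings is not given, so a change in that share is not separated from these changes. The subsets also hold fewer libraries (53 decimal and 87 hexadecimal). No result about the members is read from these changes.

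**Figure D2:**
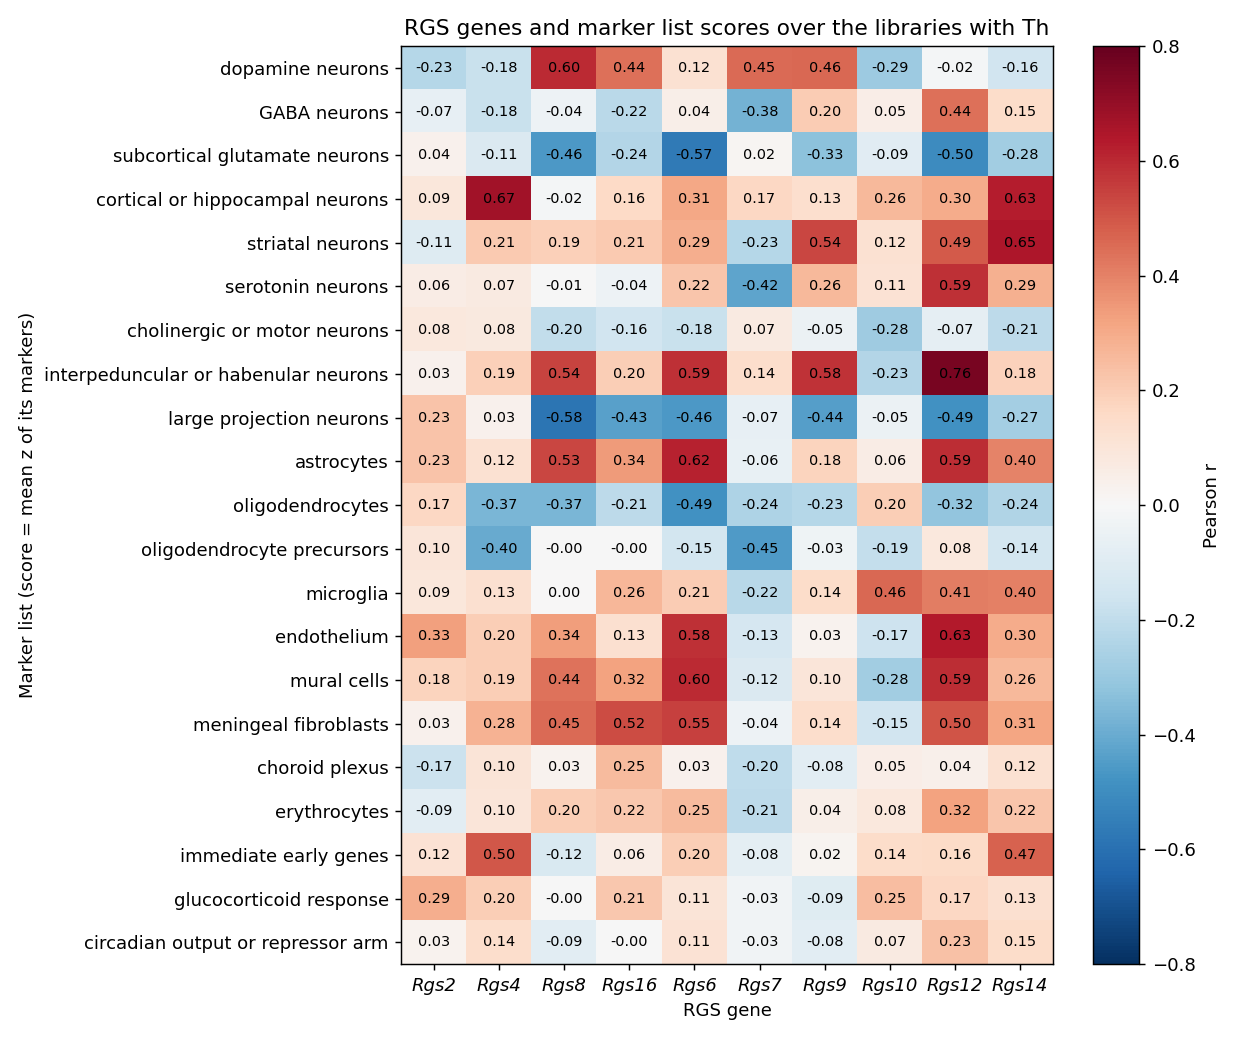
Pearson r over the libraries with Th between the log2(CPM + 1) of each RGS gene (columns) and the score of each of the 21 marker lists (rows), with the value in each cell. Rgs8 has its highest r with dopamine neurons, Rgs12 with interpeduncular or habenular neurons, Rgs6 with astrocytes, and Rgs4 with cortical or hippocampal neurons.

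The closest list of each member is given with Pearson's r, Spearman's rho and a two-sided permutation p from 100000 resamples, of which 1e-05 is the smallest possible. There were 210 such relations with lists and 1440 with single markers. The highest and the lowest list of each member make 20 relations, and in 20 of 20 the sign was the same in decimal libraries, in hexadecimal libraries and without the 2 libraries farthest from the median score. These relations were picked as extremes over the same libraries, so a shared sign was likely beforehand and is no separate support. Since whole dissections differ in many cell types at once, the list scores are not independent of each other. The first principal component of all genes held 28.6% of the variance, and its r was 0.77 with Rgs8, 0.77 with Rgs6, 0.73 with Rgs12 and -0.53 with Rgs10.

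Among the R4 members, Rgs8, a brain-enriched regulator of Gαi and Gαo signalling, followed the dopamine neurons most closely. Its level ran from 91.2 through a median of 172 to 254 CPM. Its r with the dopamine score was 0.60 (rho 0.66, permutation p = 1e-05, 0.62 without the 2 farthest libraries), with 0.63 in decimal and 0.62 in hexadecimal libraries. The limma slope was 0.21 ± 0.02 (SE, n = 140 libraries, adjusted p = 2.14e-14), and it passed in all 15 alternative settings, between 0.15 and 0.22.

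Rgs8 did not follow all dopamine markers alike. Its r was 0.81 with Chrnb3 and 0.80 with Chrna6, 2 nicotinic receptor subunits of dopamine neurons, and 0.80 with Slc6a3, the dopamine transporter (rho 0.84, 0.83 and 0.87, each permutation p = 1e-05). With Th itself r was 0.12, at 0.58 in decimal and -0.01 in hexadecimal libraries. Slc6a3 ran from 38.2 to 1491 CPM over the same libraries, and the library with the least Slc6a3 also held the least Rgs8. The lowest r of Rgs8 was with Pvalb, the calcium buffer of fast-spiking neurons, at -0.79, and among the lists with large projection neurons, at -0.58 (slope -0.20 ± 0.02, SE, limma adjusted p = 4.43e-14). The 3 genes closest to Rgs8 among all genes were Gpr161 (r = 0.90), an orphan receptor, Gpr26 (0.90), another orphan receptor, and Grk3 (0.90), a kinase that desensitises G protein-coupled receptors.

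Rgs4, a short-lived inhibitor of Gαi, Gαo and Gαq signalling that is abundant in cortex, ran from 30.9 through 53.04 to 167 CPM. Its r was 0.67 with the cortical or hippocampal score (rho 0.46, permutation p = 1e-05), with 0.71 in decimal and 0.67 in hexadecimal libraries. The slope was 0.22 ± 0.02 (SE, limma adjusted p = 5.45e-17). A few libraries carry much of that value. In 6 of the libraries with Th Slc17a7 exceeded 100 CPM, and there Rgs4 ran from 68.4 to 167 CPM, against 30.9 to 86.4 CPM in the rest. Without the 6, r was 0.45 with the score and 0.21 with Slc17a7, down from 0.51 with all libraries.

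The second list of Rgs4 was that of immediate early genes, which mark recent activity of neurons. Its r of 0.50 (rho 0.24) fell to 0.18 without the 6 libraries, and its r with Arc fell from 0.50 to 0.04. The lowest list of Rgs4 was that of oligodendrocyte precursors, at -0.40 (limma slope -0.13 ± 0.02, SE, adjusted p = 2.89e-05), but the markers of that list had a mean r of only 0.03 with each other. The genes closest to Rgs4 were Kcnq5, a potassium channel subunit (r = 0.62), Sema3a, a guidance cue (0.59), and Prkcb, a protein kinase C (0.57). Without the 6 libraries these r values were 0.39, 0.44 and 0.36. The median of Sema3a was only 1.87 CPM.

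**Figure D3:**
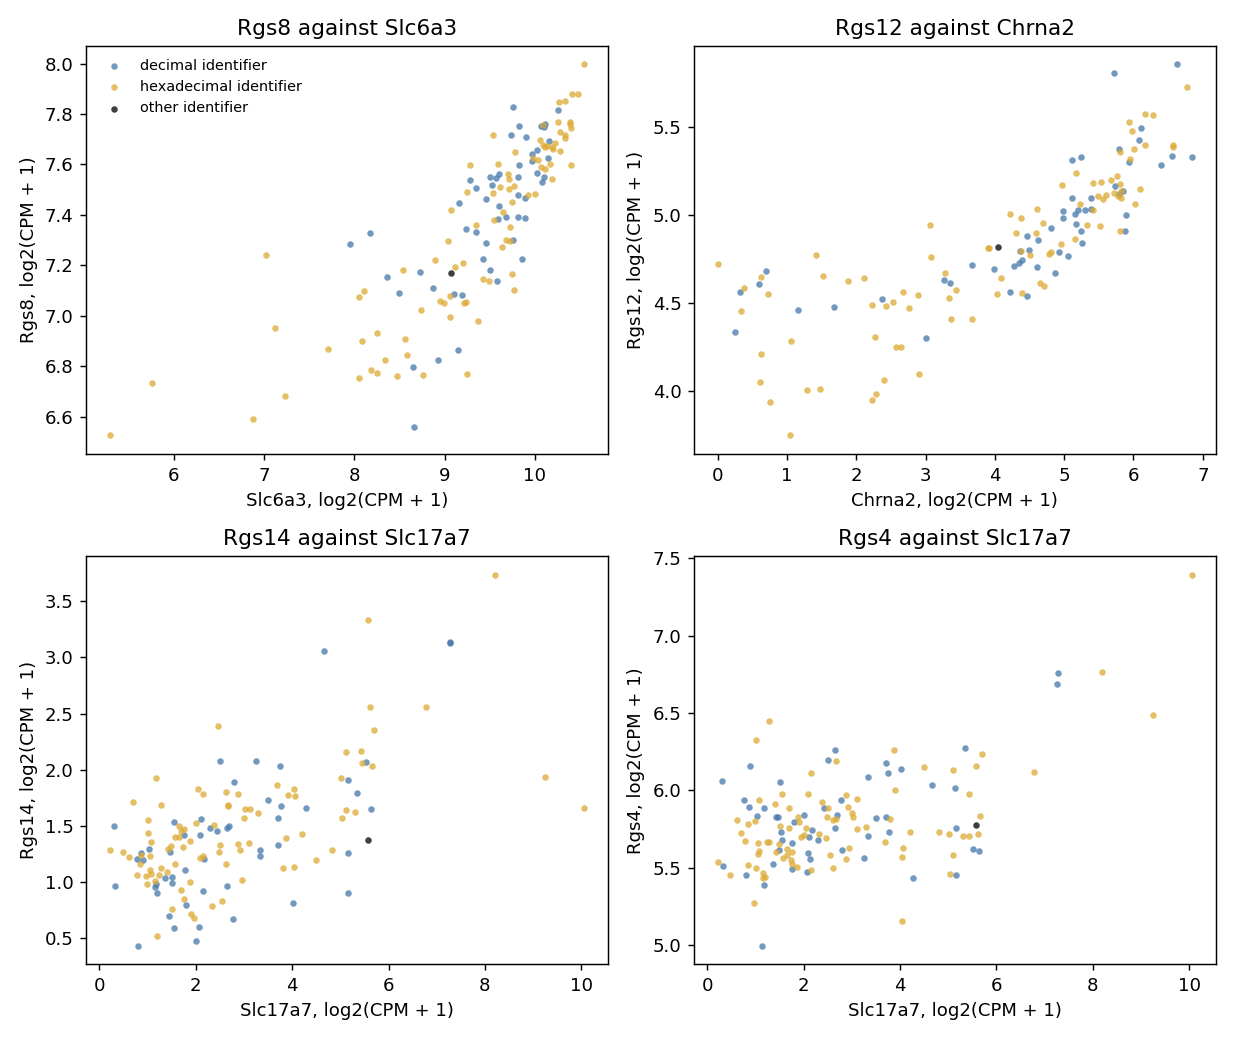
Log2(CPM + 1) of an RGS gene against that of 1 marker in each library with Th, coloured by the format of the identifier. Rgs8 is higher in libraries with more Slc6a3, and Rgs12 is higher in those with more Chrna2 except at the low end, where it shows no clear rise. For Rgs4 the libraries high in Slc17a7 stand apart on the right and Rgs14 is at 2.16 CPM in the library with most Slc17a7.

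Rgs2, which acts mainly on Gαq and is induced rapidly by many stimuli, ran from 4.76 through 17.1 to 28.5 CPM, and 5 libraries stood below the rest. They held 4.76, 4.87, 5.94, 7.01 and 7.84 CPM, and the next library held 10.3 CPM. All 5 carry hexadecimal identifiers. Their Slc6a3 lay between 38.2 and 290 CPM, below the median of 774 CPM, and their Th lay between 1977 and 3934 CPM. The library with the highest Rgs2 of all also had Slc6a3 within that range.

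These 5 libraries shape the relations of Rgs2. Its highest list was endothelium, with r = 0.33 (rho 0.14, permutation p = 9e-05), and without the 5 libraries r was 0.09 and the limma slope fell from 0.11 to 0.022. Its lowest list was dopamine neurons, with r = -0.23 (rho -0.37), and without them r was -0.45. The slope on the dopamine score was -0.076 ± 0.030 (SE, limma adjusted p = 0.031), and it missed the threshold in 7 of 15 settings, among them the one without the relabelled libraries (-0.076, limma adjusted p = 0.0519). Leaving these libraries out is a choice made on Rgs2 itself after its values were seen.

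With single markers, the negative relations of Rgs2 were the steadier ones. Its r was -0.64 with En1, a transcription factor of midbrain dopamine neurons (decimal -0.58, hexadecimal -0.64), and -0.54 with Th (-0.53 without the 5 libraries). With Gad2, the GABA-synthesising enzyme, r was 0.55 in all libraries, 0.58 in hexadecimal libraries and -0.02 in decimal ones, so this relation did not hold within both formats. Its r with Slc6a3 likewise was -0.31 in decimal and 0.49 in hexadecimal libraries. The closest genes to Rgs2 were Vps41 (r = 0.80), a component of late endosome fusion, Oxct1 (0.78), an enzyme of ketone body use, and Tmx2 (0.78), a thioredoxin-related membrane protein. Rgs2 was also the only member that differed between identifier formats, where 38% of all genes passed. It was lower in hexadecimal libraries by -0.18 ± 0.06 log2 units (SE, limma adjusted p = 0.0161), with medians of 16.1 CPM against 17.8 CPM, and without the 5 libraries the difference was -0.10 and did not pass.

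Rgs16, an inhibitor of Gαi and Gαq signalling, ran from 5.23 through 9.61 to 21.6 CPM. Of the lists whose score it rose with, the 2 highest by r are given. Its r was 0.52 with meningeal fibroblasts (rho 0.56, permutation p = 1e-05; limma slope 0.17 ± 0.02, SE, adjusted p = 1.43e-10), whose slope passed in all 15 settings. Its r was 0.44 with dopamine neurons (rho 0.45; slope 0.14 ± 0.02, SE, limma adjusted p = 9.57e-07), which also passed in all 15. The single markers closest to it were Slc6a13, a GABA transporter of the leptomeninges (r = 0.53), Igf2, a growth factor (0.53), and Dcn, a matrix proteoglycan (0.50). Its lowest list was large projection neurons, at -0.43. The closest genes were Prkcd, a protein kinase C (r = 0.63), Rbp4, a retinol carrier (0.62), and Ctdspl, a phosphatase (0.60).

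Among the R7 members, Rgs6, which restrains Gαi and Gαo signalling to GIRK potassium channels, ran from 45.05 through 94.6 to 202 CPM. Its r was 0.62 with the astrocyte score (rho 0.62, permutation p = 1e-05; limma slope 0.23 ± 0.03, SE, adjusted p = 8.75e-15), with 0.47 in decimal and 0.66 in hexadecimal libraries. Mural cells (r = 0.60) and interpeduncular or habenular neurons (0.59) followed closely, so Rgs6 had no single partner list. The size of the astrocyte slope ran from 0.067 to 0.28 over 15 settings, all past the test. Its closest markers were Aqp4, the water channel of astrocyte endfeet (r = 0.72), Slc1a3, a glutamate transporter (0.69), and Gfap (0.67). Its lowest marker was Olig1, a transcription factor of the oligodendrocyte lineage, at -0.74, and its lowest list subcortical glutamate neurons, at -0.57.

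With Slc6a3, Rgs6 had an r of 0.57 (0.34 in decimal and 0.61 in hexadecimal libraries), while the dopamine score as a whole gave 0.12. The closest genes to Rgs6 were Plcb4 (r = 0.86), a phospholipase C driven by Gαq, Ppfia4 (0.86), a liprin of presynaptic sites, and Dlg3 (0.86), a scaffold of the synapse. Of the slopes on the microglia score, that of Rgs6 (0.079 ± 0.031, SE, limma adjusted p = 0.031) was the only one that turned, to -0.023 with median-of-ratios size factors (adjusted p = 0.535).

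Rgs7, an inhibitor of Gαo signalling in brain and retina, ran from 52.7 through 77.98 to 101.4 CPM. Its highest list was dopamine neurons, with r = 0.45 (rho 0.46, permutation p = 1e-05; limma slope 0.078 ± 0.013, SE, adjusted p = 2.21e-07), at 0.63 in decimal and 0.34 in hexadecimal libraries. The slope passed in all 15 settings, between 0.054 and 0.12. The difference of the slopes between formats was tested for 50 pairs of member and main list by limma, of which 0 passed over all genes and 4 had an unadjusted p under 0.05. Its closest markers were Neurod6 (r = 0.53), a transcription factor found in cortex and in some dopamine neurons, Nr4a2 (0.50), a transcription factor of dopamine neurons, and Aldh1a1 (0.49), an enzyme of a ventral dopamine population. The lowest list was oligodendrocyte precursors (-0.45), and the lowest marker was Foxp1 (-0.49). The closest genes to Rgs7 were Zcchc18 (r = 0.66), Bdnf (0.66), a neurotrophin, and Atl1 (0.65), which shapes the endoplasmic reticulum.

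Rgs9, whose long isoform restrains D2 and opioid receptors in striatum and whose short isoform serves photoreceptors, ran from 2.72 through 8.39 to 20.0 CPM. The gene-level rows do not separate the isoforms. Its r was 0.58 with interpeduncular or habenular neurons (rho 0.55, permutation p = 1e-05; limma slope 0.21 ± 0.03, SE, adjusted p = 4.31e-13), 0.54 with striatal neurons and 0.46 with dopamine neurons. Among single markers, its r was 0.56 with Chrna3 and 0.53 with Chrna2, both nicotinic receptor subunits. Its lowest list was large projection neurons, at -0.44, and its lowest marker Vamp1, at -0.52. The closest genes were Hpcal4 (r = 0.71), a neuronal calcium sensor, Celf5 (0.69) and Celf3 (0.69), the last 2 being RNA-binding proteins.

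The partners of the R7 complex were read from a separate list. Gnb5, the obligate Gβ5 subunit, had r of -0.17 with Rgs6 (permutation p = 0.0402), 0.24 with Rgs7 (p = 0.00407) and 0.03 with Rgs9 (p = 0.704). Rgs7bp, which anchors the complex at the membrane, had r of 0.53 with Rgs6 (permutation p = 1e-05), 0.06 with Rgs7 and 0.19 with Rgs9. Gpr158, an orphan receptor that recruits Rgs7, had r of 0.48 with Rgs6, 0.46 with Rgs7 and 0.40 with Rgs9, each with permutation p = 1e-05. The r of Gpr158 was at least 0.40 with all 3 R7 members, while that of Gnb5 lay between -0.17 and 0.24. By a limma slope on the member itself, 77.9% of all genes passed with Rgs6, 47.5% with Rgs9 and 22.2% with Rgs7. A small p of a partner with Rgs6 is thus no mark of partners alone. These partners were not compared with the R4 or R12 members, so whether a relation is particular to the R7 members was not tested. Rgs9bp and Gpr179, the remaining partners on the list, did not pass the filter on low values.

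Of the R12 members, Rgs12 had the strongest relation to any list. Its level ran from 12.4 through 27.6 to 56.98 CPM. Its r with interpeduncular or habenular neurons was 0.76 (rho 0.84, permutation p = 1e-05, 0.77 without the 2 farthest libraries), at 0.72 in decimal and 0.78 in hexadecimal libraries. The limma slope was 0.31 ± 0.02 (SE, adjusted p = 1.92e-25) and passed in all 15 settings, between 0.20 and 0.35. With this score 7 members rose, where 50.5% of all genes did, and 1 fell, where 20.3% did.

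Of the single markers closest to Rgs12, Chrna2 and Otp are on the interpeduncular or habenular list and Htr1a is on the serotonin neuron list, with whose score Rgs12 had r = 0.59. Its r was 0.81 with Chrna2, a nicotinic subunit abundant in the interpeduncular nucleus (rho 0.89), 0.79 with Otp, a transcription factor (rho 0.87), and 0.77 with Htr1a, the serotonin autoreceptor (rho 0.84). Chrna2 was at 0 in the lowest library and had a median of 23.7 CPM. The lowest marker was Vamp1, a vesicle protein of fast large neurons, at -0.73, and the lowest list subcortical glutamate neurons, at -0.50. Rgs12 was also the only member that rose with the GABA score (slope 0.18 ± 0.03, SE, limma adjusted p = 2.58e-06). The closest genes were Gas7 (r = 0.88), Sel1l3 (0.88) and Nrp2 (0.87), the last a receptor for guidance cues. The r of Rgs12 with Slc6a3 was -0.14 in decimal and 0.52 in hexadecimal libraries.

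Rgs10, a small protein found in microglia and in neurons, ran from 20.5 through 29.4 to 60.9 CPM. Its highest list was microglia, with r = 0.46 (rho 0.40, permutation p = 1e-05; limma slope 0.12 ± 0.02, SE, adjusted p = 2.12e-07), at 0.63 in decimal and 0.36 in hexadecimal libraries. The slope passed in all 15 settings. The closest markers were C1qb (r = 0.64), a complement component, and Trem2 (0.60), a microglial receptor, followed by S100b (0.60), an astrocyte marker. Its lowest list was dopamine neurons, at -0.29, and its lowest marker Gad2, at -0.52 (decimal -0.28, hexadecimal -0.60). The genes closest to Rgs10 were not microglial: they were Hsd17b10, a mitochondrial enzyme (r = 0.80), Eef1b2, a translation elongation factor (0.80), and Rpl23, a ribosomal protein (0.80). Rgs10 also had an r of -0.53 with the first principal component.

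Rgs14, which scaffolds Ras and Gαi signals and is abundant in hippocampal area CA2, ran from 0.351 through 1.55 to 12.3 CPM. Its r was 0.65 with striatal neurons (rho 0.62, permutation p = 1e-05; limma slope 0.36 ± 0.04, SE, adjusted p = 7.47e-15) and 0.63 with cortical or hippocampal neurons (rho 0.56; slope 0.36 ± 0.04, SE, limma adjusted p = 2.6e-15). Both slopes passed in every setting in which Rgs14 was tested. Without the 6 libraries with much Slc17a7, the r values were 0.67 and 0.48. The closest markers were Slc17a7 (r = 0.62), Drd1 (0.57), the D1 dopamine receptor, and Ppp1r1b (0.56), the phosphatase inhibitor of striatal neurons. Its lowest list was subcortical glutamate neurons, at -0.28. The closest genes were Egr3 (r = 0.79), an activity-regulated transcription factor, Icam5 (0.78), an adhesion molecule of forebrain neurons, and Ddn (0.76), a dendritic protein.

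The 6 libraries with Th and much Slc17a7 did not treat the members alike. The library with most Slc17a7 (1064 CPM) had the highest Rgs4 (167 CPM), Rgs6 (202 CPM) and Rgs7 (101.4 CPM) of all libraries with Th, yet Rgs14 was at 2.16 CPM. Rgs9 was at 3.62 CPM there, the second lowest level of all. The library with most Rgs14 (12.3 CPM) held 293 CPM of Slc17a7 and 62.2 CPM of Rgs6, less than the median library. In all 6, Rgs4, Rgs10 and Rgs14 exceeded the medians of the remaining libraries (52.2, 29.35 and 1.52 CPM). Rgs10 did so narrowly, with a lowest level of 29.95 CPM in the 6. Rgs8 was below its remaining median of 175.4 CPM in all 6, with a highest level of 163.5 CPM there. Rgs6 ran from 62.2 to 202 CPM in the 6, on both sides of the remaining median of 93.6 CPM. Rgs2, Rgs16, Rgs7, Rgs9 and Rgs12 also lay on both sides of their remaining medians. The share of all genes with such a shift was not tested.

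The levels in the 11 libraries without Th are given as a description, because the split was made on a measured value. Rgs14 differed most. It lay between 63.02 and 72.2 CPM there, with a median of 67.9 CPM, 43.7 times the median with Th. Rgs4 lay between 406 and 577 CPM, with a median of 454 CPM, 8.55 times that with Th. Rgs12 lay between 80.8 and 101.6 CPM (median 88.5, 3.21 times), Rgs2 between 37.5 and 50.7 CPM (median 43.9, 2.57 times) and Rgs7 between 104.3 and 120.2 CPM (median 110.9, 1.42 times). In each of these 5 genes every library without Th exceeded every library with Th. The same was true of 8.87% of the 15536 genes with a mean of at least 1 on the log2 scale over all libraries, and 10.2% were lower in every library without Th.

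The other 5 members overlapped between the sets. Rgs8 lay between 96.5 and 117.5 CPM without Th, with a median of 101.3 CPM, 0.589 times that with Th. Rgs6 lay between 49.2 and 63.5 CPM (median 54.8, 0.579 times). Rgs16 lay between 12.7 and 23.5 CPM (median 15.5, 1.61 times), Rgs9 between 7.13 and 12.5 CPM (median 9.39, 1.12 times) and Rgs10 between 25.8 and 38.4 CPM (median 33.6, 1.14 times).

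Pairs of members were compared over the libraries with Th, 45 pairs in all. Their median r was 0.18, against 0.05 over all pairs of genes in the fit. Of the 45, 34 were above 0, where 56.7% of all pairs of genes were. By the limma slope of all genes on each member, 25 pairs passed, 22 of them positive and 3 negative. The share of all genes that passed was 76% with Rgs8, 77.9% with Rgs6, 76.5% with Rgs12 and 63.4% with Rgs10. It was 50.4% with Rgs2, 47.5% with Rgs9 and 41.7% with Rgs16. It was 26% with Rgs14, 22.2% with Rgs7 and 15.5% with Rgs4. With 25 of 45 pairs past the test, the members were within the range of these shares. Of the 12 pairs within a subfamily, 6 passed as positive and 1 as negative, with a median r of 0.20. Of the 33 pairs between subfamilies, 16 passed as positive and 2 as negative, with a median r of 0.18.

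The closest pair crossed subfamilies. Rgs6 and Rgs8 had r = 0.74 (rho 0.73, permutation p = 1e-05, limma adjusted p = 1.1e-23), with 0.73 in decimal and 0.74 in hexadecimal libraries and 0.83 without the 6 libraries. Rgs6 and Rgs12 followed with r = 0.65 (rho 0.69, permutation p = 1e-05, limma adjusted p = 2.06e-17). Rgs4 and Rgs14 had r = 0.46 (rho 0.32), which was 0.29 without the 6 libraries. The lowest pair was Rgs8 and Rgs10, with r = -0.46 (rho -0.45, permutation p = 1e-05, limma adjusted p = 4.31e-08), at -0.19 in decimal and -0.57 in hexadecimal libraries. Rgs2 and Rgs8 had r of -0.38 in decimal and 0.22 in hexadecimal libraries, and 4 of the pairs that passed also changed sign between the formats. These were Rgs2 with Rgs6 (-0.09 in decimal and 0.36 in hexadecimal libraries), Rgs2 with Rgs12 (-0.02 and 0.29), Rgs6 with Rgs10 (0.12 and -0.34) and Rgs10 with Rgs12 (0.21 and -0.38). The 4 that passed remain in the counts of pairs above, where Rgs6 with Rgs10 and Rgs10 with Rgs12 count as negative. Beyond those counts, no pooled relation is read from these 5 pairs.

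Some members are neighbours on chromosome 13, where 5 of the 10 lie. The file positions of Rgs8 and Rgs16 are 66.4 kb apart, and their r was 0.37 (rho 0.38, permutation p = 2e-05, limma adjusted p = 4.44e-06). Rgs4 lies 94.8 kb from Rgs5, a pericyte gene that is no member, and their r was 0.13 (permutation p = 0.133). The pair with the highest r, Rgs6 and Rgs8, lies on chromosomes 6 and 13.

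**Figure D4:**
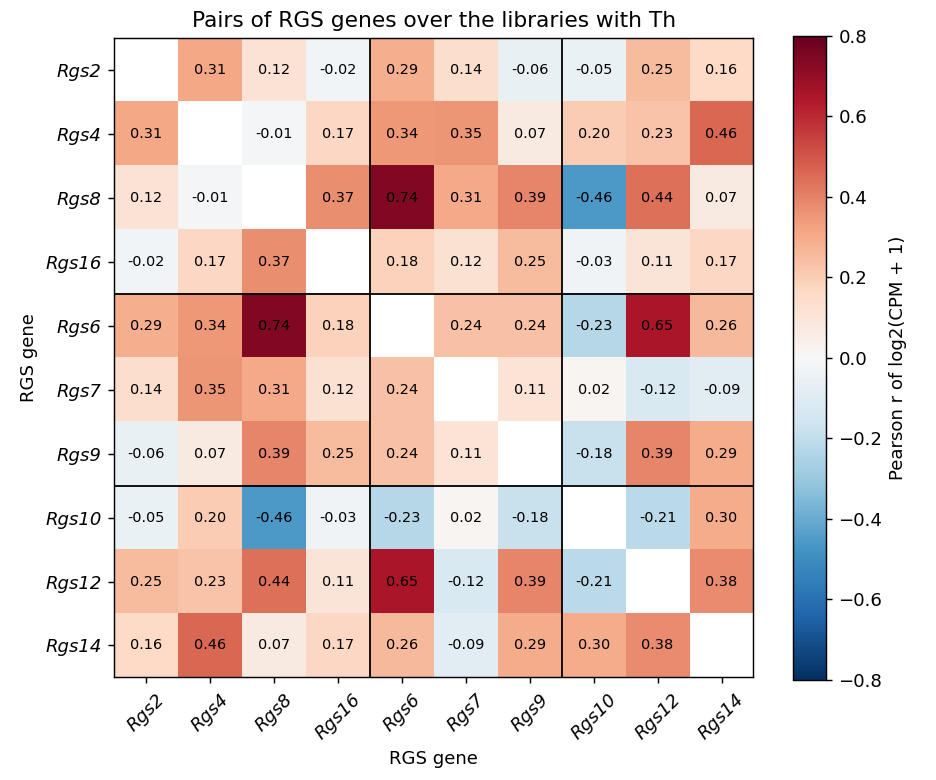
Pearson r of log2(CPM + 1) between each pair of RGS genes over the libraries with Th, with black lines between the R4, R7 and R12 subfamilies. The highest values are Rgs6 with Rgs8 (0.74) and Rgs6 with Rgs12 (0.65), and the lowest is Rgs8 with Rgs10 (-0.46).

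The rest of the pathway was read from 8 lists with the dopamine score, where 24.4% of all genes rose and 16.6% fell. Of the 15 other RGS domain genes, 11 passed the filter on low values, of which 5 rose with the score and 0 fell (Rgs22 by 0.13, Rgs11 by 0.12 and Axin2 by 0.073 log2 units per SD as the largest). Of 5 Gαi, Gαo and Gαz subunits, 4 rose, led by Gnai1 (0.12 ± 0.01, SE, limma adjusted p = 5.3e-16), Gnaz (0.12) and Gnao1 (0.046). Of 4 genes of the Gαq family 2 rose, Gna11 (0.18) and Gnaq (0.11). Neither Gnas nor Gnal passed, and of Gna12 and Gna13 only Gna13 did (0.18, adjusted p = 0.043 by limma). Of 14 Gβ and Gγ genes 4 rose and 4 fell, with the largest slopes in Gng13 (-0.17), Gng2 (0.17) and Gng4 (0.16). Of the 3 measured R7 partners Gpr158 alone rose, by 0.23 ± 0.02 (SE, limma adjusted p = 3.9e-26). Of 5 measured chaperones and GoLoco proteins of Gα, 2 rose, the exchange factors Ric8b (0.069) and Ric8a (0.046).

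The Gα subunits that RGS proteins act on differed in which members they followed. Gnaz, a Gαi relative, had r of 0.70 with Rgs8 (rho 0.69, permutation p = 1e-05) and -0.53 with Rgs10 (rho -0.51, permutation p = 1e-05). Gnao1, the main Gα of brain, had r of -0.48 with Rgs2 and 0.43 with Rgs9 (each permutation p = 1e-05). Gnaq had r of 0.57 with Rgs8, 0.53 with Rgs9 and -0.39 with Rgs2, which acts on it. Gnai3 had r of 0.58 with Rgs12 and 0.54 with Rgs6. None of the 6 Gα genes compared had an r of 1 sign with all 10 members. For Gnai3 the only negative r was near 0, at -0.04 with Rgs7 (permutation p = 0.6). The values named here were picked among the larger ones of all pairs of these 6 genes with the 10 members.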

How the data were processed

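The deposited table holds log2 values, taken here as log2(estimated count + 1) per gene because library totals differ after back-transformation and 55.7% of the low values (below 100) come within 0.001 of whole numbers. Quantification was with kallisto 0.48, per the submitters' processing notes; the build and annotation are not given in the sources used here, and the file positions match gene ends of the RefSeq GRCr8 table. Values were back-transformed, divided by the library total (15.2 to 57.2 M, 1e6, median 24.3 M) and expressed as log2(CPM + 1). Counts below a few CPM, as for Rgs14, carry most counting error.

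Libraries with Th of 10 CPM or more entered the relations; the library with another identifier form was left out of limma fits (140). Genes with a mean of at least 1 entered (15546). Of 22 marker lists, 21 with at least 3 measured genes were scored. Slopes came from limma 3.58.1 in R 4.3.3 with Benjamini-Hochberg adjustment over all genes, tested on simulated data. Values of r, rho and permutation p were computed with numpy 2.4.6 in Python 3.11.15, with ranks from scipy 1.17.1. Named beside the members are the 3 genes with the highest r, the closest and the farthest marker list, the closest (up to 3, 1 of them not reported here) and the farthest single marker, and up to 3 genes of each pathway list with the largest slope past the test. Single markers, Gα partners and pairs such as neighbours were added after values were seen. The members and lists were chosen with earlier results of these data known. Libraries are separate samples by their labels, and p-values measure the spread between them. Alternatives were another scaling, pseudocount (0.1 CPM), filters, covariates, subsets by format and by library.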

Additional observations from a re-analysis of the deposited data

How the results depend on the processing

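Over 15 alternatives, 554 of the single slopes recomputed kept their direction and their side of the threshold, 67 no longer passed and 1 turned: that of Rgs6 on the microglia score was -0.0226 with median-of-ratios size factors. Median levels moved by less than 1 SD of single libraries in all 40 recomputations. That limit is wide for a median over many of the same libraries and could hardly be exceeded. Of the 84 recomputed counts of members, 70 stayed within 1.5 times their value. The others follow, and the cause was not tested. They are given without the share of all genes that passed in the same setting, so a change in that share is not separated from them. They describe the settings, and no result about the members is read from them. The GABA count was 4 with median-of-ratios size factors and 5 with the other main scores as covariates, against 2. The cortical count was 3 with median-of-ratios size factors, 3 in decimal libraries, 3 in hexadecimal libraries and 3 with the other main scores, against 5. The oligodendrocyte count was 3 in decimal libraries, 5 with the other main scores and 5 with the first principal component, against 9. The count of members that differed between identifier formats was 2 with the cortical and oligodendrocyte scores, 3 with the other main scores, 2 without relabelled libraries, 0 with the first principal component and 0 without the 5 libraries low in Rgs2, against 1. The last 2 alternatives were chosen after seeing the data. The filter at a mean of 3 removed Rgs14, which then had no value. No paired analysis was possible because the libraries form 1 group and their numbers follow accession order. Depth limits Rgs14 and Rgs9 most, since their levels are low.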
